A study of Mus musculus with 12 samples.

Results

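The comparison of doxycycline (Dox) with PBS used 6 of the 12 libraries of a series on mouse acute myeloid leukaemia, 3 labelled Dox and 3 labelled PBS. Both groups were leukaemia cells of the line CMM-tetON-shStat3, described as inv(16) leukaemia and carrying a hairpin RNA against Stat3 under a doxycycline-driven promoter. The cells had been placed by vein into NSG mice, an immunodeficient strain that lacks B, T and NK cells but keeps its own neutrophils, monocytes, macrophages and red cell precursors. The mice were treated by vein with Dox or PBS once about 1% of blood cells were leukaemic. The labels disagree on the schedule, giving 6 daily treatments in one place and 3 on alternate days in another. Spleens were taken 1 day after the last treatment, and cells positive for both GFP and mCherry were sorted for RNA sequencing. The other 6 libraries came from mice given the oligonucleotide CpG1668, a TLR9 agonist, with Dox (CpG1668+Dox) or without it (CpG1668). Of the 33531 gene symbols in each file, 12043 had a mean RPKM (reads scaled for gene length and sequencing depth) of at least 1 over the 6 libraries and were tested. Just inside that limit lay BC024978 at a mean RPKM of 1.0002, and just outside it Gm6483 at 0.99994. Because the limit used the same 6 libraries, a gene under 1 in every PBS library was tested only through its Dox values. Such a gene could be counted as risen but hardly as fallen. Counts of risen genes and medians of lists that hold such genes lean upward for that reason. All changes below are on the log2(RPKM + 1) scale, Dox over PBS, unless a ratio of mean RPKM is named. A gene is said to have risen or fallen where limma's adjusted p was under 0.05.

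STAT3 is a transcription factor that cytokine receptors such as those for IL-6 and G-CSF activate through JAK kinases, and in myeloid leukaemia it favours survival over maturation. The inv(16) rearrangement of human leukaemia joins CBFB to the myosin gene MYH11, and the fusion protein hinders the core-binding factor that drives myeloid maturation. As granulocytes mature they first fill primary granules with myeloperoxidase and serine proteases, then secondary granules with lactoferrin and cathelicidin, while monocytes gain lysozyme, receptors and antigen-presenting genes. Every group carried the hairpin, so what Dox does by itself and what the hairpin does cannot be told apart.

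An estimated 30450000 to 32650000 reads stood behind each library, and 11945 to 12160 genes reached an RPKM of 1 in it. Pearson correlations over the tested genes were 0.9931 to 0.9951 among the Dox libraries, 0.9951 to 0.9954 among the PBS libraries and 0.9853 to 0.9903 between the groups. Along the first principal component (55.8% of the variance) lay the Dox libraries at 6.72, 13.97 and 15.21, against PBS at -12.36, -11.49 and -12.05. Dox library 1 stood apart from the other two, nearer to PBS on that axis and alone at 13.06 on the second component (14% of the variance), where the other Dox libraries lay at -4.43 and -4.75. The counts below are therefore also given without it. Whether each library is a mouse of its own is not stated in the labels, so the p-values measure the spread between libraries, which may be technical.

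Stat3 itself was not lower in the Dox libraries. The gene lies on chromosome 11 from 100885098 to 100939540 (GRCm38, minus strand). Its RPKM was 18.8, 19.1 and 18.8 in Dox, against 17.9, 16.8 and 16.9 in PBS. All 3 Dox libraries lay above all 3 PBS libraries, by 0.13 ± 0.0385 (SE). The exact two-sided permutation test gave p = 0.1, the smallest that 3 against 3 libraries allow, and limma's adjusted p was 0.138. When all 12 libraries shared the estimate of spread the adjusted p was 0.0476, so that Stat3 passed there as higher in Dox. With the 6 libraries of the CpG1668 arms included, the 6 Dox-labelled libraries exceeded the other 6 by 0.11 (exact permutation within arms, p = 0.005, the smallest of 400 arrangements). Protein was not measured in the files used here. Stat3 mRNA thus does not check the labels, and Dox and PBS stand throughout for the libraries labelled so. The mouse gene Cbfb had an RPKM of 30.8, 32.0 and 32.2 in Dox, against 28.9, 29.5 and 32.3 in PBS, and Myh11 1.56, 1.65 and 1.599 in Dox, against 1.68, 1.56 and 1.53 in PBS. Neither passed the test (adjusted p = 0.554 and 0.956). These values are of whole genes and do not measure a fusion transcript.

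In the sorted cells, genes of granulocyte and monocyte maturation were higher with Dox and late red cell genes were lower. Of 12043 genes, 269 (2.23%) passed the test, 187 (1.55%) higher and 82 (0.681%) lower. At least a 2-fold ratio of mean RPKM was reached by 96 (0.797%) of the higher and 18 (0.149%) of the lower genes. The Dox and PBS values did not overlap in a wider set, with 1746 genes (14.5%) higher and 1203 (9.99%) lower in every Dox library than in every PBS library. Over all tested genes the median change was 0.01. The number of calls moved with single libraries. It was 418 without Dox library 1, 61 without Dox library 2 and 65 without Dox library 3, against 42, 117 and 34 without PBS libraries 1, 2 and 3. It was 80 with no limit on RPKM, with 0 late neutrophil, 0 primary granule, 0 erythroid and 2 monocyte genes among them, and 618 when all 12 libraries shared the estimate of spread. With the mean of the late neutrophil genes as a covariate limma called 0 genes and 961 had an unadjusted p under 0.05. That mean did not overlap between the groups (3.52 to 5.06 in Dox, against 1.85 to 2.38 in PBS), so this fit cannot tell it and the treatment apart. Of 97 named genes that passed, 42 passed in at least 3 of the 6 fits with 1 library left out. In all 6 such fits 16 passed. All 97 kept their direction in the fits in which they were tested. Genes named for the size or p-value of their change had no overlap between the groups, and leaving out 1 library cannot reverse such a gene. Their kept direction thus says nothing of stability.

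Most of the tested primary granule genes, which are first made at the promyelocyte stage, rose. Of 10 listed genes 7 were tested, 6 rose and 0 fell, with a median change of 2.06. Mpo, the peroxidase that makes hypochlorous acid, had an RPKM of 13.2, 14.5 and 24.5 in Dox, against 2.14, 2.41 and 2.23 in PBS. Its lowest Dox value was more than 5 times its highest PBS value, and the change of 2.45 ± 0.199 (SE, adjusted p = 0.00451) passed with any library left out. Elane (neutrophil elastase) had 5.53, 8.44 and 11.5 in Dox, against 1.09, 1.49 and 0.859 in PBS, a change of 2.10 (adjusted p = 0.0103). Prtn3 (proteinase 3), its neighbour on chromosome 10, had 4.97, 6.58 and 10.6 in Dox, against 0.742, 0.990 and 1.09 in PBS (change 2.06, adjusted p = 0.0103). Ctsg (cathepsin G) had 6.05, 8.10 and 13.96 in Dox, against 1.07, 1.06 and 1.35 in PBS (change 2.19, adjusted p = 0.012). For these 3 proteases the Dox values were spread over about a 2-fold range, with Dox library 1 lowest and library 3 highest, and each passed in 4 of the 6 fits with 1 library left out. Ms4a3, a marker of granulocyte and monocyte progenitors, rose by 1.11 and Gstm1, a glutathione transferase, by 0.62. Ms4a3 had only 0.406, 0.513 and 0.604 in PBS, so that its Dox values brought it into the test. The seventh tested gene, Nkg7, also belongs to the T and NK cell list, and it had 13.99, 17.2 and 15.8 in Dox, against 14.5, 16.4 and 11.4 in PBS (adjusted p = 0.572). The number that passed was 1, 5 and 1 of 7 without PBS libraries 1, 2 and 3, and 6, 4 and 5 without Dox libraries 1, 2 and 3. In bulk RNA, more cells of a type and more RNA per cell cannot be told apart.

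The promoters of the genes of the 4 proteins above are shown, which moved together and are classic targets of the myeloid ETS factor PU.1. Its own gene, Spi1, did not pass, with an RPKM of 18.8, 21.4 and 20.8 in Dox, against 19.6, 17.6 and 17.4 in PBS. A part of PU.1 in these changes was not tested. Each is the 250 bases before the RefSeq transcription start (GRCm38.p6), written 5′ to 3′ on the gene's strand. Capitals mark AGGAAGT, an ETS core, and in Ctsg also TTCNNNGAA, the STAT motif, which starts 189 bases before the start site.
Mpo, chr11:87793534-87793783, plus strand: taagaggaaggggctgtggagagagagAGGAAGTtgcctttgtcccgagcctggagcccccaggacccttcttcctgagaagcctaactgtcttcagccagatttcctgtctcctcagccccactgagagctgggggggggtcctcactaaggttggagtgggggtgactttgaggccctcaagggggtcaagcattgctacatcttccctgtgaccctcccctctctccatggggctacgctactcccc
Elane, chr10:79886062-79886311, plus strand: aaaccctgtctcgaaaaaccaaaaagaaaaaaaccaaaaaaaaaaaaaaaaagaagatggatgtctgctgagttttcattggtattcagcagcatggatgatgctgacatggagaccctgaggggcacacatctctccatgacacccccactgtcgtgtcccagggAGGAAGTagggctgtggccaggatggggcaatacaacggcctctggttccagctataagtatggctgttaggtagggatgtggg
Prtn3, chr10:79879417-79879666, plus strand: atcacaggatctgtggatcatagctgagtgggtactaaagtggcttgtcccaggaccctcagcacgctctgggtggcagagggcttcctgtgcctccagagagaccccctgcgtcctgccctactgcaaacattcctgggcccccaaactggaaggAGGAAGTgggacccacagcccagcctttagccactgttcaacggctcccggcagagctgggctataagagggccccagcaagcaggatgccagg
Ctsg, chr14:56102575-56102824, minus strand: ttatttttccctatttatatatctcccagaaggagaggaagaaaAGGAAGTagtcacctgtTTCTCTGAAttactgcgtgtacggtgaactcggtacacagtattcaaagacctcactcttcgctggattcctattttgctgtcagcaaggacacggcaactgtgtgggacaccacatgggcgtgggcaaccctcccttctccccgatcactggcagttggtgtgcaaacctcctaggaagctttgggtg
Both strands were searched, and every match lay on the gene's own strand with no overlap between motifs. AGGAAGT began 223 bases before the start in Mpo, 84 in Elane, 94 in Prtn3 and 206 in Ctsg. Of the 6 primary granule promoters searched (these and Ms4a3 and Gstm1), 4 held AGGAAGT and 1 held TTCNNNGAA. The 4 printed are those that held AGGAAGT, while Ms4a3 and Gstm1, which also rose, held neither motif. Among 32851 RefSeq promoters of the same length, 2525 (7.7%) held AGGAAGT and 2306 (7.0%) held TTCNNNGAA. Both motifs were chosen with these sequences in view, and a match is letters only, not a bound site.

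Most of the largest changes belonged to genes of late neutrophils. Of 24 listed genes 20 were tested, 17 rose and 0 fell, with a median change of 2.31. S100a9, which pairs with S100a8 to form calprotectin, had an RPKM of 254, 577 and 1021 in Dox, against 46.6, 94.3 and 66.3 in PBS. Its partner S100a8 had 136, 315 and 614 in Dox, against 25.1, 54.2 and 38.4 in PBS. The groups did not overlap for either gene, yet the highest Dox library exceeded the lowest about 4-fold. The changes were 2.98 ± 0.481 for S100a9 (SE, adjusted p = 0.0282) and 2.96 ± 0.518 for S100a8 (adjusted p = 0.0373). Among secondary granule genes, Ngp (neutrophilic granule protein) had 84.02, 211 and 322 in Dox, against 16.0, 32.8 and 20.5 in PBS. Camp, which encodes cathelicidin, rose by 2.81, Ltf (lactoferrin) by 2.73 and Lcn2 (lipocalin 2, which captures bacterial iron carriers) by 2.73. Chil3 (change 2.39), Hp (haptoglobin, 2.35), Cd177 (2.33), Wfdc21 (2.28) and Anxa1 (annexin A1, 2.47) rose as well. Cxcr2, the receptor that draws mature neutrophils to chemokines, had only 1.86, 2.29 and 5.88 in Dox, against 0.311, 0.430 and 0.341 in PBS (change 1.56, adjusted p = 0.048). Csf3r, the G-CSF receptor, had the smallest adjusted p of the list, with 2.80, 4.48 and 4.13 in Dox, against 0.630, 0.874 and 0.658 in PBS (change 1.47, adjusted p = 0.00764). Cxcr2 and Csf3r were below the RPKM limit in every PBS library, so that their Dox values brought them into the test.

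The summed RPKM of the late neutrophil list was 624, 1372 and 2443 in Dox, against 120, 238 and 167 in PBS. By this sum, to which S100a8 and S100a9 gave most, Dox library 3 held about 4 times the level of Dox library 1. The call count of the list was 19 of 20 without Dox library 1, 1 without Dox library 2 and 9 without Dox library 3, and 2, 3 and 1 without PBS libraries 1, 2 and 3. Host neutrophils and monocytes are present in NSG spleens, and the gate on GFP and mCherry was set to leave them out. Il2rg, which NSG hosts lack in working form, had 54.3, 56.7 and 53.1 in Dox, against 53.5, 53.9 and 52.3 in PBS. The part of host cells in the neutrophil and monocyte results was not tested.

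**Figure D1:**
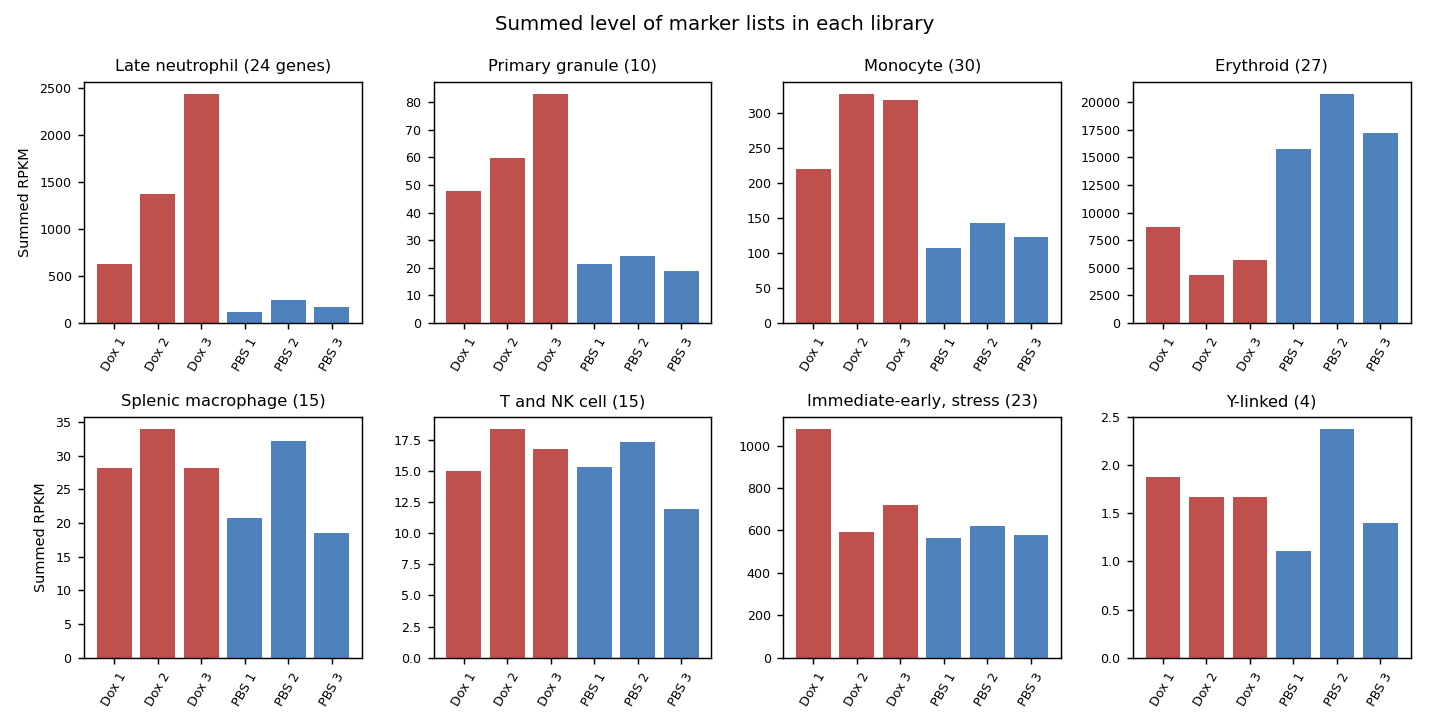
Summed RPKM of 8 marker lists in each library, with 3 Dox bars (red) left of 3 PBS bars (blue) and the number of listed genes found in the files in the panel titles. Late neutrophil sums were 624 to 2443 in Dox and 120 to 238 in PBS, while erythroid sums were 4366 to 8679 in Dox and 15798 to 20767 in PBS, and splenic macrophage, T and NK cell and Y-linked sums overlapped between the groups.

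Monocyte genes rose as well, with a smaller median. Of 30 listed genes 22 were tested, 15 rose and 0 fell, with a median change of 0.81. Lyz2 (lysozyme M), shared with neutrophils, had an RPKM of 78.1, 143 and 142 in Dox, against 15.5, 30.4 and 20.2 in PBS (change 2.40, adjusted p = 0.0161). F13a1, the A chain of coagulation factor XIII and a marker of classical monocytes, had 2.65, 3.21 and 3.10 in Dox, against 0.377, 0.574 and 0.671 in PBS. As every PBS value was below the RPKM limit, its Dox values brought it into the test. The 3 Dox values of F13a1 lay close together, and its change of 1.37 ± 0.0957 (SE, adjusted p = 0.00442) passed with any library left out. Ms4a6c, a membrane protein of monocytes, had 3.89, 5.51 and 4.28 in Dox, against 0.965, 1.39 and 1.36 in PBS (change 1.31), and likewise passed in all 6 fits. Itgam (CD11b) rose by 1.66, Ms4a6d by 0.77, Cd14 (the lipopolysaccharide co-receptor) by 0.72 and Cd68 (a lysosomal glycoprotein of phagocytes) by 0.46. Csf1r, the M-CSF receptor, had 3.70, 4.88 and 3.29 in Dox, against 1.20, 2.19 and 1.33 in PBS (change 0.95, adjusted p = 0.0364). Fcgr3, a low-affinity Fc receptor, did not pass and had 21.1, 23.7 and 25.5 in Dox, against 25.6, 26.9 and 27.9 in PBS (adjusted p = 0.22). The count was 17 of 22 without Dox library 1, 5 without either of the other Dox libraries, and 4, 12 and 3 without PBS libraries 1, 2 and 3. The summed level was 220, 328 and 319 in Dox, against 107, 143 and 123 in PBS, so that Dox library 2 was highest here and not library 3.

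**Figure D2:**
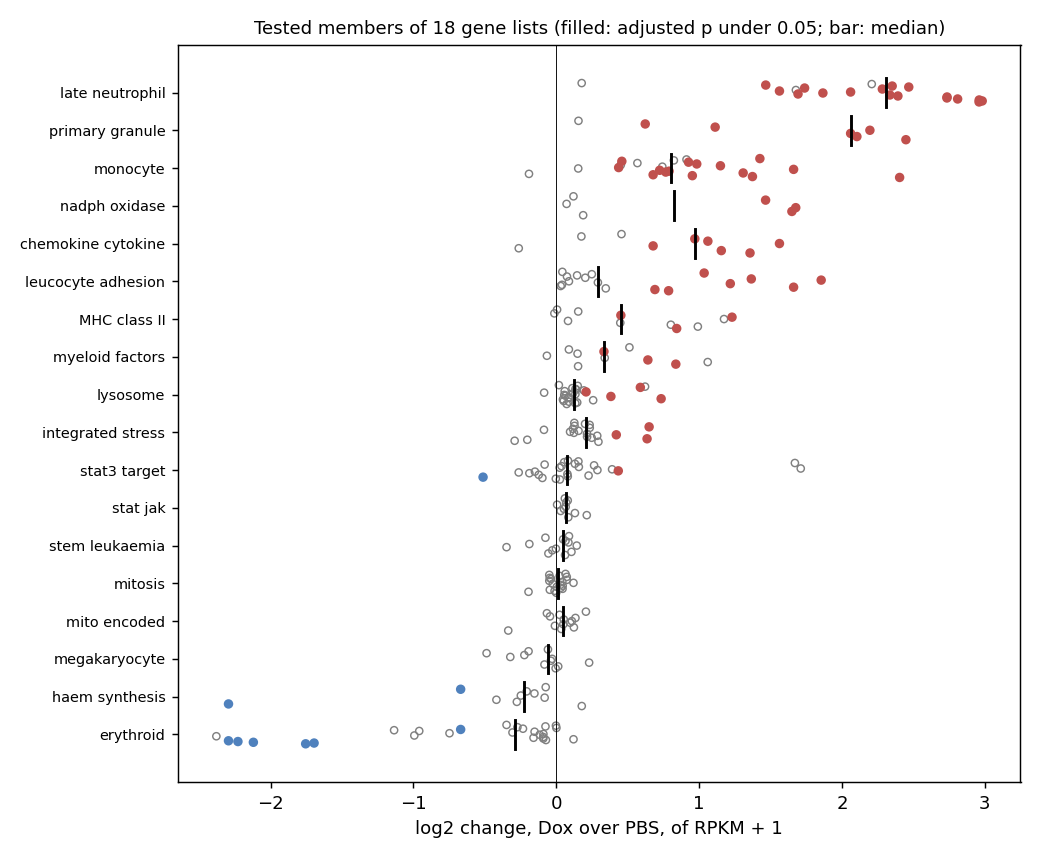
Change of every tested member of 18 gene lists on the log2(RPKM + 1) scale (horizontal axis, Dox over PBS), filled where the adjusted p was under 0.05 and open otherwise, with a black bar at the list's median. The medians were 2.31 for late neutrophil, 2.06 for primary granule, 0.81 for monocyte and -0.29 for erythroid genes, and 0.01 for mitosis genes.

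Of 6 tested phagocyte NADPH oxidase genes 3 rose, and all 6 changes were positive, with a median of 0.83. Whether the subunits differed in their change was not tested. Cybb, Ncf1 and Ncf4, which encode the catalytic gp91phox and the cytosolic p47phox and p40phox, rose, and Cyba and Rac2 did not pass. Cybb had an RPKM of 4.49, 7.81 and 10.1 in Dox, against 1.10, 2.26 and 1.56 in PBS (change 1.65, adjusted p = 0.0282). Ncf1 rose by 1.68 and Ncf4 by 1.47. Without Dox libraries 1, 2 and 3 the count was 3, 0 and 2 of 6, and without PBS libraries 1, 2 and 3 it was 0, 1 and 0.

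Of the S100 and annexin genes, 15 of 16 were tested, 5 rose and 0 fell, with a median change of 0.18. Besides S100a8, S100a9 and Anxa1 these were S100a4 (change 1.54) and S100a6 (1.13), calcium-binding proteins of motile cells. S100a4 had an RPKM of 8.78, 11.9 and 6.89 in Dox, against 1.89, 2.56 and 2.95 in PBS, with Dox library 3 lowest and not highest. The count was 7, 1 and 2 without Dox libraries 1, 2 and 3, and 0, 1 and 0 without PBS libraries 1, 2 and 3. Among 17 tested leucocyte surface and adhesion genes, 7 rose and 0 fell (median 0.29). Cd52, a short glycopeptide of the leucocyte surface, had 5.82, 8.52 and 9.82 in Dox, against 1.16, 1.603 and 1.64 in PBS (change 1.85 ± 0.167 SE, adjusted p = 0.0071), and passed with any library left out. Cd53 rose by 1.36 and Lsp1 by 1.03. Ptprc, which encodes the pan-leucocyte marker CD45, was low throughout, at 1.44, 2.07 and 1.80 in Dox, against 0.429, 0.742 and 0.650 in PBS (change 0.79, adjusted p = 0.0228). The adhesion count was 10, 3 and 4 without Dox libraries 1, 2 and 3, and 1, 6 and 1 without PBS libraries 1, 2 and 3.

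Chemokine, chemokine receptor and cytokine genes included some of the smallest p-values. Of 26 listed genes 9 were tested and 6 rose, with a median change of 0.97. Cxcr4, the CXCL12 receptor that holds haematopoietic cells in the marrow, had an RPKM of 5.50, 5.77 and 5.13 in Dox, against 2.06, 2.28 and 1.96 in PBS. The lowest Dox value exceeded the highest PBS value more than 2-fold, and the change of 1.06 ± 0.0598 (SE, adjusted p = 0.0019) passed with any library left out. Ccl9, a CCR1 ligand made by myeloid cells, had 2.05, 2.38 and 1.95 in Dox, against 0.322, 0.399 and 0.491 in PBS (change 1.16, adjusted p = 0.00442), and also passed in every such fit. Ccl6 rose by 1.36, Ccr2, the receptor by which monocytes leave the marrow, by 0.68, and Il1b by 0.97. Tnf did not pass, with 4.33, 2.703 and 3.19 in Dox, against 2.30, 2.32 and 1.92 in PBS (adjusted p = 0.128). Il1b had 3.38, 2.27 and 1.84 in Dox, against 0.513, 0.867 and 0.921 in PBS, and passed in 1 of the 6 fits. Ccl9 and Il1b were below the RPKM limit in every PBS library, so that their Dox values brought them into the test. The count of this chemokine and cytokine list was 6, 3 and 4 without Dox libraries 1, 2 and 3, and 3, 4 and 3 without PBS libraries 1, 2 and 3.

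Among growth factor and cytokine receptors, 4 of 19 tested genes rose and 0 fell (median 0.04). They were Csf3r, Csf1r, Csf2ra (the GM-CSF receptor alpha chain, change 0.45, adjusted p = 0.0498) and Ifngr1. Ifngr1, the ligand-binding chain of the interferon gamma receptor, had an RPKM of 5.20, 5.67 and 5.01 in Dox, against 1.67, 2.30 and 1.98 in PBS (change 1.08 ± 0.0842 SE, adjusted p = 0.00442). Csf3r and Ifngr1 passed with any library left out, and the count of the list was 3 without Dox library 1 or PBS library 2 and 2 without any other library. Csf2rb, the common beta chain, did not pass, at 144, 144 and 156 in Dox, against 174, 166 and 170 in PBS (adjusted p = 0.0773). Il6st, the gp130 chain through which IL-6 reaches STAT3, was near 1 in both groups, at 1.22, 1.37 and 1.42 in Dox, against 0.957, 0.882 and 0.990 in PBS (adjusted p = 0.108).

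The STAT and JAK genes did not pass. Of 11 listed genes 10 were tested, 0 passed limma's adjusted threshold, and all 10 changes were positive with a median of 0.07. When all 12 libraries shared the estimate of spread 1 of the 10 passed, which was Stat3. Stat2, a partner in interferon signalling, had an RPKM of 5.79, 5.96 and 5.96 in Dox, against 5.14, 4.54 and 5.21 in PBS, and an adjusted p of 0.0932. Of 25 tested genes listed as STAT3 targets, 1 rose and 1 fell, with a median change of 0.08. Of the 23 that did not pass, 11 were higher in every Dox library than in every PBS library. In that same way 4 were lower, and 8 overlapped. Over all 12043 tested genes, whether they passed or not, 1746 (14.5%) were higher and 1203 (9.99%) lower in that way. Vegfa, the endothelial growth factor, rose, with 8.58, 8.99 and 9.07 in Dox, against 6.08, 6.53 and 6.34 in PBS (change 0.43 ± 0.0424 SE, adjusted p = 0.00766). Bcl2l1, which encodes the survival protein BCL-XL and is also an erythroid gene, fell to 13.3, 11.1 and 11.6 in Dox, against 16.9, 18.8 and 16.8 in PBS (change -0.51, adjusted p = 0.0222). Vegfa passed in all 6 fits with 1 library left out and Bcl2l1 in 1. The count of the STAT3 target list was 5, 1 and 2 without Dox libraries 1, 2 and 3, and 1 without any PBS library. It was 5 when all 12 libraries shared the estimate of spread. Myc had 75.5, 78.1 and 66.9 in Dox, against 85.4, 80.5 and 85.4 in PBS, with an adjusted p of 0.184.

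Myeloid transcription factors were mostly low in these cells. Of 18 listed genes 10 were tested, and Cebpb (change 0.84), Klf2 (0.64) and Irf5 (0.33) rose, with a median of 0.34 over the 10. Cebpb, a C/EBP factor of emergency granulopoiesis, had an RPKM of 3.74, 5.22 and 5.63 in Dox, against 2.14, 2.53 and 2.10 in PBS. Cebpe, which drives secondary granule genes, did not pass at 0.832, 1.85 and 2.53 in Dox, against 0.271, 0.352 and 0.183 in PBS (adjusted p = 0.0609). Its Dox order was that of the late neutrophil list. The count was 4, 0 and 0 without Dox libraries 1, 2 and 3, and 1, 2 and 1 without PBS libraries 1, 2 and 3. Irf8, the factor that commits progenitors to monocytes and dendritic cells, had a mean RPKM of 0.77 and lay below the limit for testing. It stood at 1.09, 1.21 and 1.20 in Dox, against 0.308, 0.464 and 0.355 in PBS, a ratio of means of 3.10 with no overlap. In a fit of 30692 genes with no limit on RPKM its change was 0.66 (adjusted p = 0.049), while Mpo (adjusted p = 0.0503) and S100a9 (adjusted p = 0.148) did not pass in that same fit. Klf4, Cebpa and Gfi1 were also below the limit and were looked at after their values were seen. In that fit Klf4 rose by 0.83 (adjusted p = 0.0306), and Cebpa (0.74, adjusted p = 0.0656) and Gfi1 (0.24, adjusted p = 0.162) did not pass.

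Antigen presentation and endosomal genes moved in part. Of 11 tested MHC class II pathway genes 3 rose, namely H2-Aa (change 0.84), Ctss (cathepsin S, 1.23) and Ifi30 (the lysosomal thiol reductase, 0.45), with a median of 0.45. Cd74, the invariant chain, had an RPKM of 23.8, 27.3 and 15.2 in Dox, against 6.52, 12.4 and 8.83 in PBS, and did not pass (adjusted p = 0.0663). H2-Ab1 had 6.14, 6.84 and 3.99 in Dox, against 1.63, 3.13 and 2.28 in PBS (adjusted p = 0.0602). For both genes the groups did not overlap, and Dox library 3, highest for neutrophil genes, was lowest among the Dox libraries. The class II count was 2, 0 and 1 without Dox libraries 1, 2 and 3, and 0, 2 and 0 without PBS libraries 1, 2 and 3. When all 12 libraries shared the estimate of spread it was 7. None of 17 tested MHC class I genes passed in limma's fit (median 0.04), and 2 of them, B2m and H2-D1, passed when all 12 libraries shared the estimate of spread (adjusted p = 0.0268 and 0.046). B2m, the class I light chain, had 261, 268 and 267 in Dox, against 219, 242 and 225 in PBS (adjusted p = 0.0708 over the 6 libraries).

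Of 16 tested genes of the TLR9 pathway, 4 rose. Unc93b1, the chaperone that carries TLR9 to endosomes, had an RPKM of 4.01, 4.78 and 4.52 in Dox, against 2.41, 2.71 and 2.76 in PBS (change 0.58, adjusted p = 0.0137). Ctss, Irf5 and Cd14 were the others. Tlr9 itself was low, at 0.180, 0.236 and 0.173 in Dox, against 0.0616, 0.170 and 0.0654 in PBS. In a gene of 1 kb, 3 reads would give an RPKM of 0.092 to 0.099 at these depths, by counting error only. That value is lower in a longer gene, and the reads behind Tlr9 were not known. Without a limit on RPKM the change of Tlr9 was 0.12 (adjusted p = 0.387). The TLR9 list's count was 4, 2 and 1 without Dox libraries 1, 2 and 3, and 0, 2 and 0 without PBS libraries 1, 2 and 3. Of 26 lysosomal genes 4 rose, which were Ctsh, Cst3 (cystatin C), Hexa and Psap, with a median of 0.13. Psap, which encodes prosaposin, the precursor of sphingolipid activators, had 85.1, 94.7 and 81.8 in Dox, against 54.8, 63.2 and 55.0 in PBS (change 0.59, adjusted p = 0.0203). The lysosomal count was 6, 0 and 1 without Dox libraries 1, 2 and 3, and 0, 3 and 0 without PBS libraries 1, 2 and 3.

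Several stress-response genes rose. Ddit4 (REDD1), which restrains mTORC1 under stress, had an RPKM of 24.8, 25.1 and 23.9 in Dox, against 15.6, 15.4 and 15.4 in PBS. The change was 0.64 ± 0.0364 (SE), with an adjusted p of 0.0019, and it passed with any library left out. Herpud1, an endoplasmic reticulum stress gene, had 25.7, 29.2 and 26.8 in Dox, against 18.4, 18.8 and 18.2 in PBS (change 0.54, adjusted p = 0.00764). Jdp2, a repressor that pairs with Jun proteins, had 6.68, 7.52 and 6.93 in Dox, against 3.83, 4.08 and 3.24 in PBS (change 0.77, adjusted p = 0.00766). In the integrated stress list 3 of 20 tested genes rose (Ddit4, Sesn2 and Nupr1), with a median of 0.21. Atf4, the central factor of that response, did not pass at 127, 121 and 106 in Dox, against 95.5, 96.8 and 94.5 in PBS (adjusted p = 0.0741). The count was 1 without PBS library 1, PBS library 3 or Dox library 2 and 3 otherwise. Of 17 tested p53 targets, Cdkn1a (p21, change 0.33) and Sesn2 (0.42) rose, with 4, 0 and 2 calls without Dox libraries 1, 2 and 3 and 0, 1 and 0 without PBS libraries 1, 2 and 3. Among 10 checkpoint and costimulation genes, Vsir (VISTA) rose by 0.59, passing in 5 of the 6 fits with 1 library left out, and Tnfsf4 (OX40 ligand) by 0.31, passing in 1.

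Immediate-early and heat shock genes were highest in Dox library 1. Hspa1b, an inducible HSP70 gene nearly identical to Hspa1a, had an RPKM of 167, 13.8 and 63.8 in Dox, against 1.39, 5.43 and 4.93 in PBS. Jun had 85.4, 15.7 and 37.9 in Dox, against 9.25, 9.48 and 9.02 in PBS. Neither passed (adjusted p = 0.0725 and 0.108), although all 3 Dox libraries lay above all 3 PBS libraries. Of 19 tested genes of the list 1 rose (Klf2), and the median was 0.51. The count was 3, 4 and 0 without Dox libraries 1, 2 and 3, and 0, 1 and 0 without PBS libraries 1, 2 and 3. Summed over the list, Dox library 1 held 1081, Dox libraries 2 and 3 held 591 and 720, and the PBS libraries held 566, 621 and 577.

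The listed interferon-stimulated genes that passed all rose, and some others lay lower without passing. Of 20 tested genes 4 rose, namely Ifi27l2a, Ifitm1, Ifitm3 and Trim30a, and 0 fell, with a median of 0.04. Ifi27l2a, an interferon-inducible gene, had an RPKM of 5.06, 4.61 and 4.31 in Dox, against 1.39, 1.88 and 1.33 in PBS (change 1.16 ± 0.0929 SE, adjusted p = 0.00442), and passed with any library left out. Ifitm3, a membrane protein that blocks virus entry, had 15.2, 17.1 and 22.5 in Dox, against 2.58, 6.27 and 4.13 in PBS (change 1.90, adjusted p = 0.021). Rsad2 (viperin) lay the other way without passing, at 12.5, 2.33 and 5.10 in Dox, against 24.02, 39.1 and 27.9 in PBS (change -2.24, adjusted p = 0.0586). The Dox order of Rsad2, with library 1 highest and library 2 lowest, was that of the globin genes below. The count was 7, 2 and 2 without Dox libraries 1, 2 and 3, and 2, 2 and 1 without PBS libraries 1, 2 and 3.

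Late red cell genes fell. Of 28 listed erythroid genes 27 were in the files and 26 were tested, 6 fell and 0 rose, with a median change of -0.29. Hbb-bs, an adult beta globin, had an RPKM of 2328, 779 and 1287 in Dox, against 5010, 6847 and 5600 in PBS. Hba-a1, an alpha globin, had 1147, 502 and 701 in Dox, against 2186, 2944 and 2412 in PBS. Every Dox library was below every PBS library, with Dox library 2 lowest and Dox library 1 highest. The changes were -2.12 ± 0.354 for Hbb-bs (SE, adjusted p = 0.0311) and -1.75 ± 0.276 for Hba-a1 (adjusted p = 0.0269). Hbb-bt (-2.23) and Hba-a2 (-1.70) fell as well, but each pair of globin genes is nearly identical, so reads may have been split between the copies. Alas2, the first enzyme of haem synthesis in red cells, had 29.9, 7.87 and 13.98 in Dox, against 66.0, 97.97 and 72.1 in PBS (change -2.29, adjusted p = 0.0386). Fech (ferrochelatase), which inserts the iron, fell by 0.67, so that 2 of 10 haem synthesis genes fell (3 without Dox library 1 and 0 without any other).

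The erythroid calls depended on the libraries. They numbered 9 without Dox library 1 and 0 without each of the other 5 libraries, and 11 when all 12 libraries shared the estimate of spread. The summed erythroid RPKM was 8679, 4366 and 5725 in Dox, against 15798, 20767 and 17250 in PBS. Of the 20 tested erythroid genes that did not pass, 9 were lower in every Dox library than in every PBS library, 0 were higher in that way and 11 overlapped. Over all 12043 tested genes, whether they passed or not, 1203 (9.99%) were lower and 1746 (14.5%) higher in that way. Among the 9 erythroid genes were Nfe2 at 27.5, 27.2 and 31.3 in Dox, against 32.2, 40.1 and 32.5 in PBS, and Hemgn at 36.9, 36.9 and 36.6 in Dox, against 38.4, 44.2 and 40.5 in PBS. Ermap and Lmo2 were also among them. Gata1, Klf1 and Car1 were among the 11 that overlapped, and the genes of both kinds were picked for their values here. Gata1, the master factor of the lineage, had an RPKM of 105, 95.7 and 97.3 in Dox, against 107, 105 and 101 in PBS (adjusted p = 0.493). Klf1, the globin activator, had 54.7, 55.8 and 49.3 in Dox, against 50.4, 52.1 and 44.4 in PBS (adjusted p = 0.443). Car1, a carbonic anhydrase, had 674, 745 and 654 in Dox, against 761, 761 and 685 in PBS (adjusted p = 0.539). Erythroid precursors also arise in host spleens, and their part in the globin result was not tested.

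Other falling genes followed the globins or were steadier. Apol11b, an apolipoprotein L gene, had the largest fall, to an RPKM of 3.02, 0.458 and 1.07 in Dox, against 8.15, 17.4 and 9.69 in PBS (change -2.40, adjusted p = 0.029). Tubb3 fell by 1.33, Trim10 (required for terminal red cell maturation) by 1.16 and Tent5c by 1.09. Ube2o, a ubiquitin enzyme that clears proteins from maturing red cells, fell by 0.90 and the ubiquitin ligase gene Mkrn1 by 0.87. Tcp11l2 fell by 1.07 and Irgm2, an interferon-inducible GTPase, by 0.95. Ypel3, a small growth-suppressing protein, had 6.96, 6.25 and 7.03 in Dox, against 10.8, 12.4 and 10.6 in PBS. Its change of -0.66 ± 0.0679 (SE, adjusted p = 0.00924) was the only fall among the named genes that passed with any library left out. Bpgm, which makes the 2,3-bisphosphoglycerate of red cells, had 22.1, 19.8 and 20.4 in Dox, against 30.5, 36.0 and 31.4 in PBS (change -0.62, adjusted p = 0.0129). Hbq1b, a theta globin, fell by 0.71, and both passed in 5 of the 6 fits. Mir142hg, the host transcript of a haematopoietic microRNA, fell by 0.81, the cold-induced RNA-binding gene Cirbp by 0.45 and the ribosomal protein gene Rpl5 by 0.27.

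**Figure D3:**
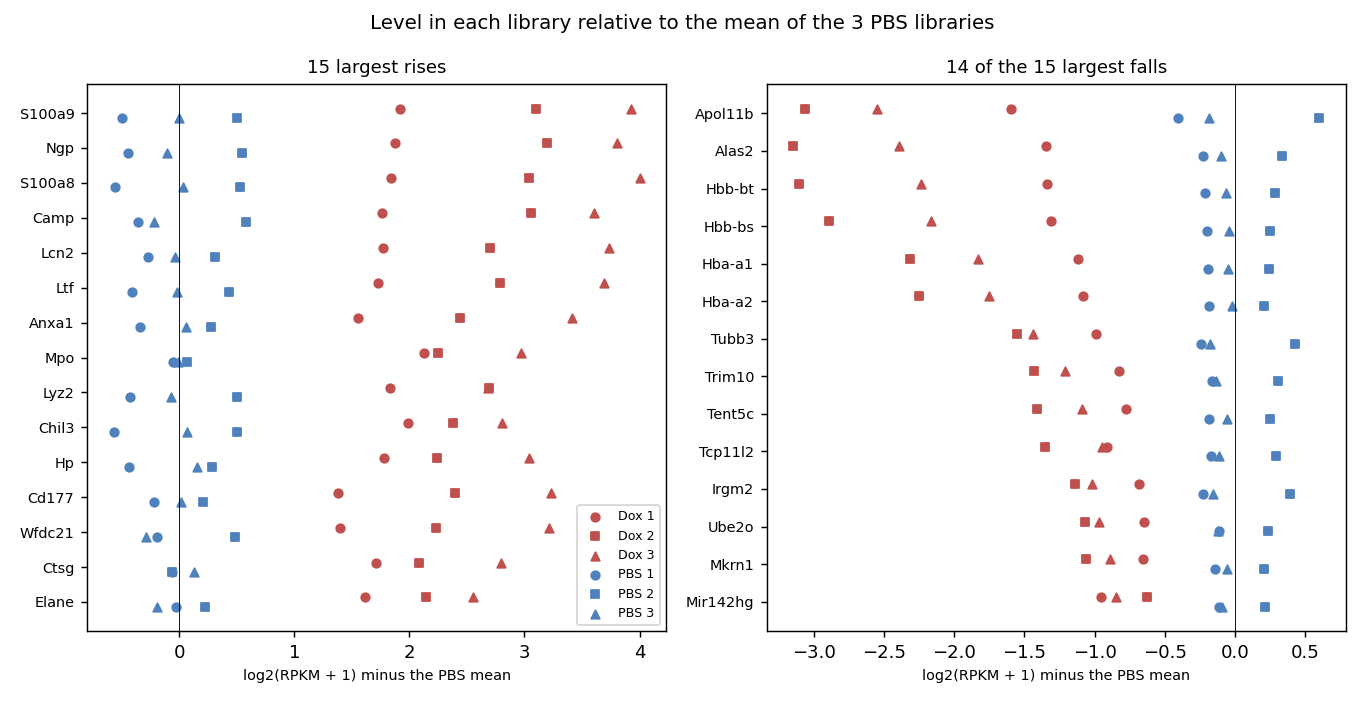
Level of the 15 largest rises (left) and 14 of the 15 largest falls (right) in each library, as log2(RPKM + 1) minus the mean of the 3 PBS libraries, with Dox in red, PBS in blue and the replicate number as the marker shape. Dox library 1 (circles) was nearest to PBS for S100a9 at 254, against 577 and 1021 in the other Dox libraries, and again for Hbb-bs at 2328, against 779 and 1287.

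Genes of growth, metabolism and the leukaemic stem cell gave few or no calls in limma's fit. None of 20 mitosis genes, 21 DNA replication genes, 26 nuclear oxidative phosphorylation genes, 25 mitochondrial ribosome genes, 13 mitochondrially encoded genes, 22 sterol and fatty acid genes or 13 stem and leukaemia genes passed. Their medians ran from -0.03 to 0.05. The stem and leukaemia list held 22 genes, and Cd34, Cd93, Prom1, Meis1 and Hoxa9 were among those below the limit for testing. The result of that list does not cover them. When all 12 libraries shared the estimate of spread, 1 stem and leukaemia gene, 1 mitochondrially encoded gene, 1 nuclear oxidative phosphorylation gene, 1 megakaryocyte gene and 2 chromatin genes passed. Of 28 ribosomal protein genes 1 fell (Rpl5), and of 19 chromatin genes 0 passed. Myb, a progenitor factor, had an RPKM of 26.6, 29.4 and 28.0 in Dox, against 25.3, 25.2 and 25.2 in PBS (adjusted p = 0.158). Lmo2 had 78.4, 63.7 and 66.9 in Dox, against 89.3, 91.2 and 85.3 in PBS (adjusted p = 0.0678). Megakaryocyte genes (0 of 11, median -0.06) and mast cell and basophil genes (0 of 10, median 0.15) did not pass. Some of the 16 listed mast cell and basophil genes were abundant in both groups, while 4 were under an RPKM of 0.1 in all 6 libraries (Mcpt4, Tpsb2, Tpsab1 and Mrgprb1). Fcer1a, the IgE receptor alpha chain, had 667, 791 and 807 in Dox, against 581, 674 and 634 in PBS, and Cpa3, a mast cell carboxypeptidase, 406, 518 and 559 in Dox, against 361, 421 and 423 in PBS.

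Of the markers of other spleen cells, few passed. None of 7 tested splenic macrophage genes passed, and C1qa, a complement subunit, had an RPKM of 3.01, 5.27 and 3.53 in Dox, against 1.94, 3.81 and 1.66 in PBS (adjusted p = 0.314). The macrophage list summed to 28.1, 34.0 and 28.1 in Dox, against 20.7, 32.2 and 18.5 in PBS, with PBS library 2 inside the Dox range. In the B cell list 8 of 14 genes were under 0.1 in all 6 libraries, as were 10 of 15 T and NK cell genes, with Gzma at 0, and 8 of 13 stromal genes, with Dcn at 0. Ighm, the immunoglobulin mu heavy chain, rose nonetheless, with 1.94, 2.37 and 1.66 in Dox, against 0.438, 0.496 and 0.448 in PBS (change 1.03, adjusted p = 0.00764), and it passed in all 5 of the fits with 1 library left out in which it was tested. Ear2, an eosinophil ribonuclease, rose by 0.97 (adjusted p = 0.0433) and passed in none of the 6 such fits. Of 9 listed eosinophil genes 2 were tested, and the other, Siglecf, lay the other way without passing. Siglecf had 16.6, 18.7 and 19.5 in Dox, against 20.9, 21.2 and 22.1 in PBS (change -0.22, adjusted p = 0.128).

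The 16 named genes that passed with any library left out were Mpo, Plac8, Cd52, Csf3r, Tgfbi, F13a1, Ms4a6c, Ifi27l2a, Ccl9, Ifngr1, Cxcr4, Jdp2, Ddit4, Herpud1, Vegfa and Ypel3. They included no gene of the secondary granules and no globin. Plac8, a small cysteine-rich protein of myeloid cells, had an RPKM of 9.96, 11.5 and 13.6 in Dox, against 1.71, 2.64 and 2.78 in PBS (change 1.92, adjusted p = 0.00442). Tgfbi, an extracellular matrix protein made by monocytes and macrophages, had 5.64, 6.41 and 6.33 in Dox, against 1.29, 2.12 and 1.65 in PBS (change 1.42, adjusted p = 0.00442).

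**Figure D4:**
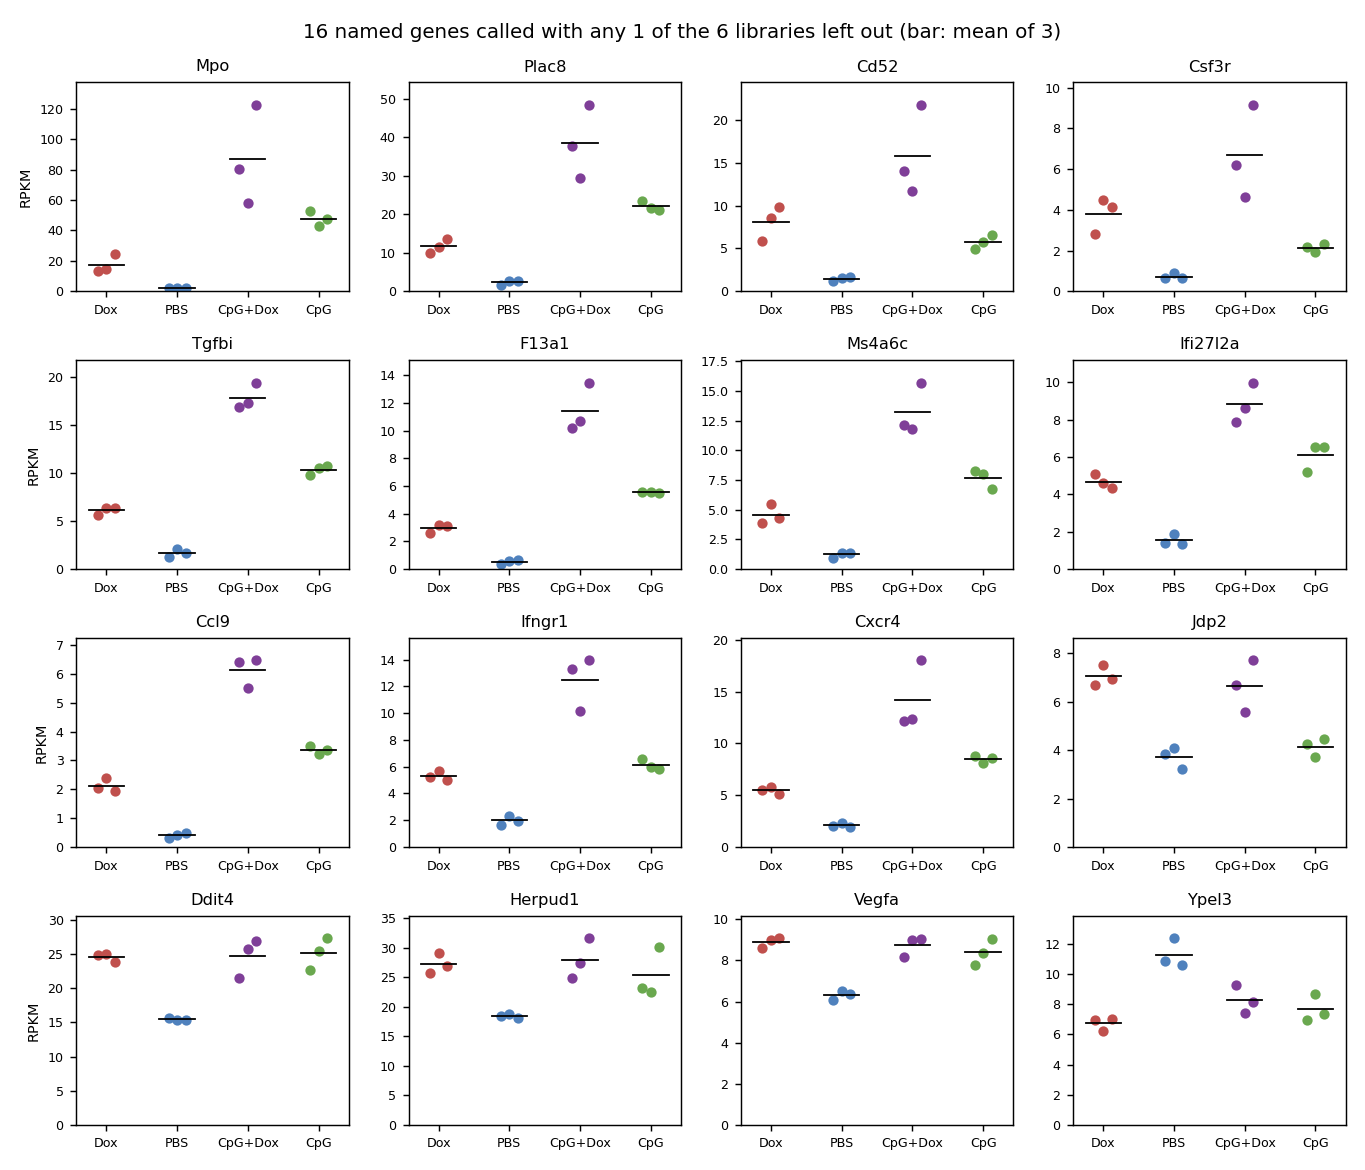
RPKM of the 16 named genes in each library of the Dox, PBS, CpG1668+Dox and CpG1668 groups, with a bar at the mean of 3. Cxcr4 was 5.13 to 5.77 in Dox and 1.96 to 2.28 in PBS, and Ddit4, Herpud1, Vegfa and Ypel3 overlapped between the CpG1668+Dox and CpG1668 libraries.

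The effect of Dox was measured a second time in the arms given CpG1668, with no library in common. There 281 of 12267 tested genes (2.29%) passed, 264 (2.15%) higher and 17 (0.139%) lower. The total was 30, 407 and 188 without CpG1668+Dox libraries 1, 2 and 3, and 25, 14 and 78 without CpG1668 libraries 1, 2 and 3. Of the 187 genes that rose in Dox against PBS, 174 (93%) had the same sign in CpG1668+Dox against CpG1668, where 58.1% of 11907 genes tested in both were positive. Of those 187, 94 (50.3%) also passed there in the same direction, which made up 47.5% of the 198 genes tested in both that rose there. Of the 82 that fell, 79 (96.3%) had the same sign and 8 (9.76%) passed, 47.1% of the 17 that fell there. None passed in the opposite direction. The median change of the risen genes was 0.68 in Dox against PBS and 0.57 with CpG1668 in both groups, and that of the fallen genes was -0.43 and -0.16.

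In this second measurement late neutrophil genes passed in 19 of 20 (median 1.68) and monocyte genes in 20 of 29 (median 0.64), and 0 of 8 primary granule genes passed in limma's fit (median 0.79). Whether the lists differed in this was not tested. Mpo had an RPKM of 80.1, 58.0 and 123 in CpG1668+Dox, against 52.9, 43.2 and 47.2 in CpG1668, a change of 0.79 (adjusted p = 0.167). S100a9 had 1340, 757 and 2043 in CpG1668+Dox, against 284, 289 and 380 in CpG1668 (change 2.01, adjusted p = 0.0277). Of 26 erythroid genes 2 fell there. Hbb-bs had 1916, 874 and 1310 in CpG1668+Dox, against 1974, 3127 and 3572 in CpG1668, and did not pass (change -1.11, adjusted p = 0.142). Irf8 rose there, with 2.61, 2.48 and 3.60 in CpG1668+Dox, against 1.602, 1.67 and 1.56 in CpG1668 (change 0.57, adjusted p = 0.0457).

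**Figure D5:**
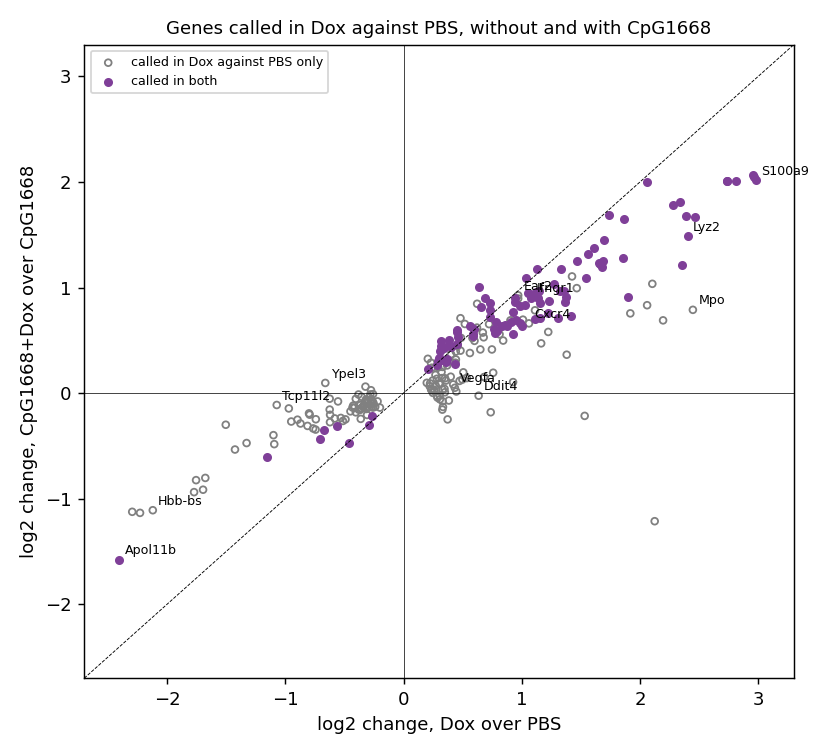
Change in CpG1668+Dox over CpG1668 (vertical axis) against change in Dox over PBS (horizontal axis), both on the log2(RPKM + 1) scale, for the 269 genes that passed in Dox against PBS, filled where they passed in both (94 higher and 8 lower). Ddit4, Vegfa and Ypel3 lay near 0 on the vertical axis at -0.02, 0.05 and 0.10, and Mpo lay below the dashed line of equal change at 0.79 against 2.45.

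The difference between both Dox effects was tested over all 12 libraries. None of 12167 genes (0%) passed limma's adjusted threshold, and 812 (6.67%) had an unadjusted p under 0.05. With no limit on RPKM 12 genes passed. Ddit4 was among the genes with the smallest p. It had an RPKM of 21.6, 25.8 and 26.9 in CpG1668+Dox, against 22.7, 25.5 and 27.3 in CpG1668, so that its change was -0.02 there and 0.64 without CpG1668 (difference -0.66 ± 0.109 SE, adjusted p = 0.316). Ypel3 had 9.27, 7.39 and 8.18 in CpG1668+Dox, against 6.99, 8.67 and 7.38 in CpG1668 (difference 0.76 ± 0.126 SE, adjusted p = 0.316). Vegfa had 8.14, 8.997 and 9.05 in CpG1668+Dox, against 7.79, 8.38 and 9.04 in CpG1668 (difference -0.38, adjusted p = 0.419). For Mpo the difference was -1.66 (adjusted p = 0.419), for S100a9 -0.97 (adjusted p = 0.87) and for Cxcr4 -0.40 (adjusted p = 0.724). A difference of the Dox effect with and without CpG1668 was thus not shown for any of these genes.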

How the data were processed

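RNA was sequenced from 12 libraries of sorted leukaemia cells, 3 in each of 4 groups taken from the sample titles. The authors deposited RPKM values for 33531 gene symbols per library. Per the submitters' processing notes the tools were STAR 2.7.9 and Partek 7.18.0723 on the build mm10. The step each tool did, the annotation, the strand setting and the filters were not stated. Values above 0 went down to 1.4e-45, as when reads are shared out between genes, and gene by gene the whole reads stayed unknown. Genes with 1 transcript, whose values step by 1 read, gave an estimate of depth, with 72.2% to 73.5% of such values within 0.05 of a whole number. Intervals and floors cover counting error only.

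The fits were made by limma 3.58.1 (R 4.3.3) on log2(RPKM + 1) (intensity trend, Benjamini-Hochberg over all genes tested), on the 6 libraries of each pair of groups with a mean RPKM of at least 1, and on all 12 libraries for the difference between the Dox effects. The pseudocount understates the change of low genes. GENCODE M21 held 32391 (96.6%) of the symbols and gave positions. No 2 libraries held identical values. The genes named were a fixed set (Stat3, Irf8, Tlr9, Cbfb, Cbfa2t3 and Myh11), the 15 largest and the 10 smallest-p changes in each direction among genes that passed without overlap and averaged 5 RPKM or more in one group, leaving out gene models, and up to 6 members of each of the lists with the largest t statistic. A few genes that the rule names are not reported here. The members and lists were chosen with earlier results of these data known. Lists are described by counts and medians, with no set test. Simulated libraries with 200 changed genes were used to test the code on known answers. Alternatives covered the pseudocount, the RPKM limit, scaling, the trend, a replicate block, a fit of 12 libraries, a neutrophil covariate and leaving out each library.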

Additional observations from a re-analysis of the deposited data

How the results depend on the processing

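The 269 genes of Dox against PBS became 268 with a pseudocount of 0.1, 272 with median-of-ratios scaling (165 higher, 107 lower), 252 with quantile normalization and 238 without the intensity trend. They became 80 with no limit on RPKM (30692 genes tested, 25 of the 269 among them), 155 with a mean RPKM of at least 5 and 618 in the fit of all 12 libraries, which held 250 of the 269. Leaving out 1 library gave 34 to 418. With the mean of the late neutrophil genes as a covariate, which does not overlap between the groups, 0 genes passed in limma's fit and 961 had an unadjusted p under 0.05. In that fit the changes of S100a8 (-0.23), Ltf (-0.11), Anxa1 (-0.15), Cd177 (-0.17), Wfdc21 (-0.31) and Cxcr2 (-0.11) turned negative. These 6 genes are part of that mean, so that changes near 0 of either sign follow from how the fit is built and say nothing of stability. For CpG1668+Dox against CpG1668 the 281 genes became 57 with no limit, 153 at a mean RPKM of 5, 450 in the fit of 12 libraries and 14 to 407 with 1 library left out. For the difference between the Dox effects the count was 12 with no limit and 0 to 1 with 1 library left out. The causes of these moves were not tested. The correlation of deviations was 0.0554, -0.0257 and 0.114 for libraries of the same replicate number, and -0.149 to 0.0839 for different numbers. Pairing by number was thus not shown, and 3 libraries per group cannot exclude it. A fit with the replicate number as a block gave 109 genes in Dox against PBS (97 higher and 12 lower). That fit made 0 calls in the erythroid, haem synthesis and myeloid transcription factor lists. The Stat3 difference stayed between 0.11 and 0.16 under the pseudocount, scaling and left-out libraries tried.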

Other observations

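The 3 Dox libraries did not keep 1 order across the gene groups. Among the 187 genes that rose, Dox library 1 was lowest of the 3 in 120 (64.2%, against 32.3% of all 12043 tested genes). Dox library 3 was highest in 87 (46.5%, against 23.2%), and Dox library 2 in 79 (42.2%, near its 37.1% of all genes). Among the 82 genes that fell, Dox library 2 was lowest in 47 (57.3%, against 2766 of the 12043) and Dox library 1 highest in 51 (62.2%, against 39.7%). PBS library 2 was the highest PBS library in 112 of the 187 (59.9%) and in 55 of the 82 (67.1%), against 30.5% of all genes. The Y-linked genes, none of which reached the limit for testing, summed to 1.88, 1.67 and 1.67 RPKM in Dox, against 1.11, 2.38 and 1.40 in PBS. Xist, looked at after its values were seen, had an RPKM of 39.3, 47.4 and 54.2 in Dox, against 55.5, 52.5 and 66.1 in PBS.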
